A study of Rattus norvegicus with 6 samples.

Results

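Neutrophil marker and granule genes were followed as a set of 9 genes, taken by symbol from the 22250 genes of the deposited expression table: the calgranulins S100a8 and S100a9, the granule proteins Lcn2, Pglyrp1 and Hp, the antiprotease Slpi, the receptors Csf3r and Trem1, and the histone-modifying enzyme Padi4. The genes were taken by symbol alone, and each was described on its own in each heart. The study asked how donor age changes the heart after cold storage and transplantation, and sequenced polyadenylated RNA from left ventricular myocardium of transplanted donor hearts. All donors were Sprague-Dawley rats labelled WT by genotype, all hearts underwent heterotopic heart transplantation, and all were taken on postoperative day 1. Young donors were 10 weeks old (hearts WT3, WT13 and WT15) and aged donors were 1 year old (hearts OT3, OT4 and OT7), with 3 hearts in each group. Per the study's text, the hearts were stored cold in University of Wisconsin solution and the recipients were young rats in both groups. Whether the leukocytes in a graft came from the donor or the recipient was not tested. The tissue was taken whole, so from these RNA data more neutrophils and more RNA of these genes per cell cannot be told apart. Nor can a part of other cells, whose markers also changed between the groups, and that part was not tested. By staining for myeloperoxidase protein, the study reports more neutrophil infiltration in aged than in young donor hearts. That staining is not matched here to the sequenced hearts.

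Neutrophils are the first leukocytes to enter reperfused heart muscle in large numbers, and they carry ready-made antimicrobial proteins in granules and cytosol. Several of these proteins are made early, in the bone marrow, so the mRNA in a mature cell covers only a portion of its contents. Calgranulins, the receptor for granulocyte colony-stimulating factor and Slpi remain transcribed in mature cells, whereas azurophil granule proteins such as myeloperoxidase are transcribed mainly in marrow precursors.

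Libraries held between 21457509 and 24560869 reads counted on genes. Levels are given as reads, or as CPM, the reads out of every 1000000 after TMM scaling (trimmed mean of M values), and the levels of the members were compared with each other in FPKM, which also divides by gene length. Heart WT15 stood apart from the other young hearts: genes of the mitochondrial genome took 11.9% of its reads against 21.7% in both WT3 and WT13 and 6.56% to 10.3% in the aged hearts. Summed CPM of 11 cardiomyocyte markers was 14443 in WT15, against 101426 in WT3 and 111454 in WT13. It was 629, 8724 and 9366 in OT3, OT4 and OT7, so OT3 stood apart among the aged hearts, with the lowest sum of all. The members' results are therefore also given without WT15 and without OT3.

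All 9 genes were higher in aged donor hearts, and for each of them the lowest aged heart lay above the highest young heart. The table of all genes was tested with edgeR's quasi-likelihood test, and all 9 members passed its filter on low counts, among 13784 genes tested. Some members, such as Padi4 with 2, 3 and 32 reads in WT3, WT13 and WT15, needed the aged hearts to pass it, so counts over the members are a description. With a fold change above 1.5 and an unadjusted p under 0.05, the limits the study states, 9 of the 9 members were higher and 0 lower, against 13.2% of all tested genes higher and 19.0% lower. Groups did not overlap, with every aged heart above every young heart, for 9 of 9 members and for 21.0% of all tested genes. The median log2 fold change of the members was 3.40, against 0.016 over all genes tested. After Benjamini-Hochberg adjustment over all genes edgeR called 0 of 13784 genes (0%) at 0.05, although 4731 had an unadjusted p under 0.05. The members' adjusted p-values ran from 0.0916, the smallest of any gene, to 0.118. DESeq2's Wald test on the same genes gave 3592 genes with an adjusted p under 0.05 and limma-voom with quality weights gave 8416. Both counted all 9 members among them. Quality weights can count hearts unequally. With them the members' median log2 fold change was 4.76, between 3.40 in edgeR with all hearts and 5.29 in edgeR without WT15. A two-sided exact permutation test on 3 hearts against 3 cannot go below 0.1.

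**Figure D1:**
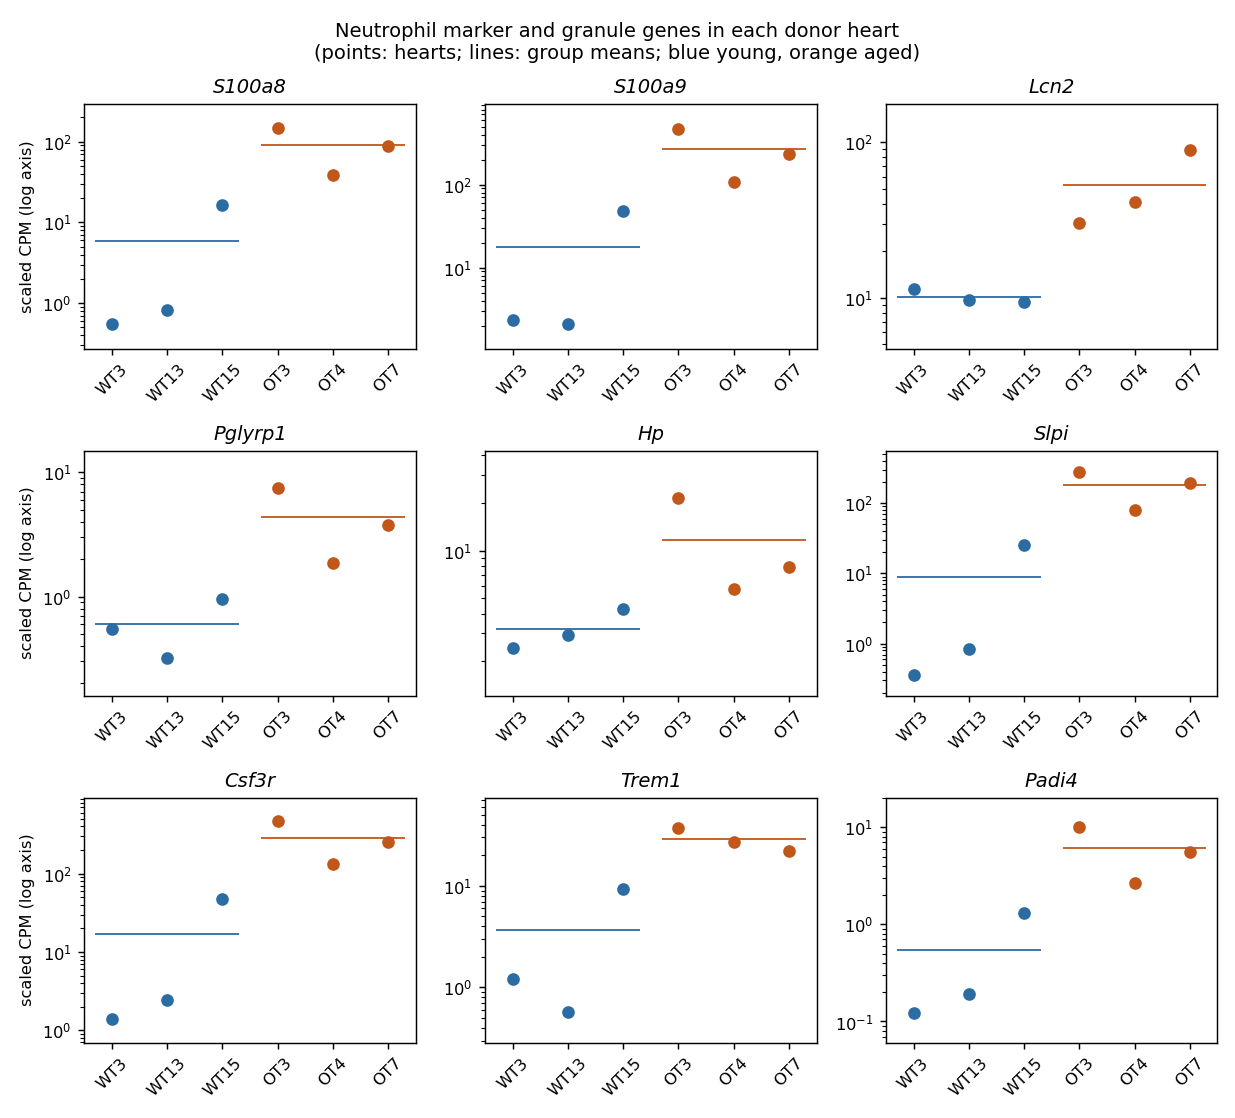
Scaled CPM of each of the 9 genes (log axis, a separate scale for each gene) in the 3 young hearts (blue) and the 3 aged hearts (orange), with points for hearts and lines for group means. For every gene the lowest aged heart sits above the highest young heart, and WT15 is the highest young heart for 8 of the 9 genes.

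S100a8 and S100a9 encode the calcium-binding subunits of calprotectin, the most abundant cytosolic protein complex of neutrophils. S100a9 (ENSRNOG00000011483, Rnor_6.0 chromosome 2, 190097554 to 190100276, minus strand) had 39, 33 and 1166 reads in WT3, WT13 and WT15, and 14362, 2865 and 6096 reads in OT3, OT4 and OT7. WT3 and WT13 were nearly without reads, WT15 lay between them and the aged hearts, and OT3 was the highest of all 6. Mean CPM was 17.5 ± 26.5 (SD, n = 3) in young against 271 ± 184 (SD, n = 3) in aged hearts, which is a log2 fold change of 3.94 (SE 1.40, edgeR, Benjamini-Hochberg adjusted p = 0.115). In the young group the SD was larger than the mean, and WT15 held 21.6 times the mean CPM of the other young hearts. Without WT15 the log2 fold change of S100a9 was 6.96 (edgeR adjusted p = 0.00225), and without OT3, the highest aged heart, it was 3.28 and no longer past the p limit (edgeR unadjusted p = 0.0706).

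S100a8 (ENSRNOG00000011557, chromosome 2, 190073815 to 190074354, plus strand) followed its partner closely, with 9, 13 and 399 reads in the young hearts WT3, WT13 and WT15, and 4505, 1018 and 2298 in OT3, OT4 and OT7. The order of the aged hearts was the same as for S100a9, and WT15 was again the only young heart with more than a few reads. Its log2 fold change was 3.92 (SE 1.36, edgeR adjusted p = 0.112), 7.09 without WT15 and 3.39 without OT3, where it missed the p limit. The genes lie 23199 bases apart on opposite strands with 0 other genes of the table between them. S100a8 had 0.231, 0.394 and 0.342 reads for each S100a9 read in the young hearts and 0.314, 0.355 and 0.377 in the aged hearts. The ratios of the calgranulin pair in aged hearts lay inside the range of the young hearts, although the read counts themselves did not overlap.

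Lcn2, Pglyrp1 and Hp are stored in neutrophil granules, and of these Lcn2 and Hp have well-known sources outside neutrophils. Lcn2 (ENSRNOG00000013973, chromosome 3, 11414186 to 11417546, minus strand) encodes lipocalin 2, which withholds iron from bacteria by binding their siderophores and which stressed epithelium, myocardium and other tissues also make. It had 188, 153 and 227 reads in WT3, WT13 and WT15, and 917, 1091 and 2316 reads in OT3, OT4 and OT7. Lcn2 had its own order of hearts: WT15 was not raised (0.889 times the mean CPM of the other young hearts), and OT7, not OT3, was the highest aged heart, with OT3 the lowest. Mean CPM was 10.2 ± 1.07 (SD, n = 3) in young and 53.4 ± 31.1 (SD, n = 3) in aged hearts, and the log2 fold change was 2.39 (SE 0.43, edgeR adjusted p = 0.0916). The log2 fold change of Lcn2 was 2.38 without WT15, 2.69 without OT3 and 1.82 without OT7, its highest aged heart. The size of the difference thus leaned on OT7. The call did not rest on a single heart, since all 6 fits that left out 1 heart kept it past the limits.

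Pglyrp1 (ENSRNOG00000013395, chromosome 1, 79790705 to 79796111, plus strand), a granule protein that binds bacterial peptidoglycan, was read far less often, with 9, 5 and 23 reads in WT3, WT13 and WT15, and 228, 49 and 99 in OT3, OT4 and OT7. Counts this low leave WT3 and WT13 close to the 3 reads taken as the floor, which equal 0.0985 to 0.191 CPM depending on the heart. The log2 fold change was 2.82 (SE 0.67, edgeR adjusted p = 0.0916) and 3.37 without WT15, and all 6 fits that left out 1 heart kept it past the limits. Its 3′ part overlaps Ccdc61 on the opposite strand, which had 161 to 234 reads in young and 209 to 371 in aged hearts, and the strand setting of the counting is not given in the sources used here. Hp (ENSRNOG00000014964, chromosome 19, 42097995 to 42100804, plus strand) encodes haptoglobin, the plasma protein that captures free haemoglobin, made mainly by liver and also carried in neutrophil granules. It showed the smallest difference of the set, with 40, 46 and 104 reads in WT3, WT13 and WT15 against 652, 150 and 206 in OT3, OT4 and OT7. The lowest aged heart, OT4, was only 1.32 times WT15. The log2 fold change of Hp was 1.85 (SE 0.56, edgeR adjusted p = 0.0962), and it was 2.16 without WT15 and 1.08 without OT3, still past the limits (edgeR unadjusted p = 0.0334).

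Slpi (ENSRNOG00000046699, chromosome 3, 160799981 to 160802433, minus strand) encodes the secretory leukocyte protease inhibitor, which blocks neutrophil elastase and cathepsin G. It had 6, 13 and 615 reads in WT3, WT13 and WT15, and 8514, 2083 and 4963 in OT3, OT4 and OT7. By fold change this was the largest difference of the 9 genes, at 8.86 ± 14.3 CPM (SD, n = 3) in young and 183 ± 101 CPM (SD, n = 3) in aged hearts, and also the widest gap inside the young group, with WT15 at 42.7 times the mean of WT3 and WT13. The log2 fold change was 4.35 (SE 1.59, edgeR adjusted p = 0.118), 8.30 without WT15 (edgeR adjusted p = 0.00168) and 3.91 without OT3, where it missed the p limit (edgeR unadjusted p = 0.0660). Among all 13784 tested genes ranked by fold change from the highest, Slpi stood at place 31, Csf3r at 41, S100a9 at 45 and S100a8 at 46, and Hp, the lowest member, at 555.

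Csf3r (ENSRNOG00000008759, chromosome 5, 144031402 to 144051600, plus strand) encodes the receptor for granulocyte colony-stimulating factor, which drives neutrophil production and survival. The receptor had 23, 38 and 1135 reads in WT3, WT13 and WT15, and 14214, 3451 and 6627 in OT3, OT4 and OT7. The aged hearts fell in the same order as for the calgranulins, and Csf3r had 0.590, 1.15 and 0.973 reads for each S100a9 read in WT3, WT13 and WT15 and 0.990 to 1.20 in the aged hearts. Mean CPM was 16.9 ± 26.0 (SD, n = 3) against 284 ± 170 (SD, n = 3), a log2 fold change of 4.06 (SE 1.44, edgeR adjusted p = 0.115), 7.26 without WT15 and 3.50 without OT3, where the p limit was missed. Trem1 (ENSRNOG00000022859, chromosome 9, 14727976 to 14809447, minus strand) encodes a surface receptor of neutrophils and monocytes that amplifies inflammatory signals through the adaptor Tyrobp. It had 20, 9 and 226 reads in WT3, WT13 and WT15, and 1128, 721 and 576 in OT3, OT4 and OT7. The aged hearts were closest to each other for this gene, with the highest 1.68 times the lowest, against 2.95 to 4.34 times for the other members. The log2 fold change of Trem1 was 2.93 (SE 0.99, edgeR adjusted p = 0.108), 5.04 without WT15 and 2.72 without OT3 (edgeR unadjusted p = 0.0568). A predicted gene on the opposite strand inside Trem1, AABR07066753.1, had 0 to 17 reads.

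Padi4 (ENSRNOG00000006855, chromosome 5, 159260675 to 159293673, minus strand) encodes peptidylarginine deiminase 4, which citrullinates histones when neutrophils release their chromatin as extracellular traps. It had the lowest FPKM of the set in all 6 hearts, with 2, 3 and 32 reads in WT3, WT13 and WT15, and 309, 71 and 144 in OT3, OT4 and OT7. WT3 and WT13 were at or under the floor of 3 reads, and every aged heart was above WT15. Mean CPM was 0.544 ± 0.674 (SD, n = 3) in young and 6.12 ± 3.76 (SD, n = 3) in aged hearts, a log2 fold change of 3.40 (SE 0.96, edgeR adjusted p = 0.0924). It was 5.29 without WT15, and all 6 fits that left out 1 heart kept it past the limits.

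**Figure D2:**
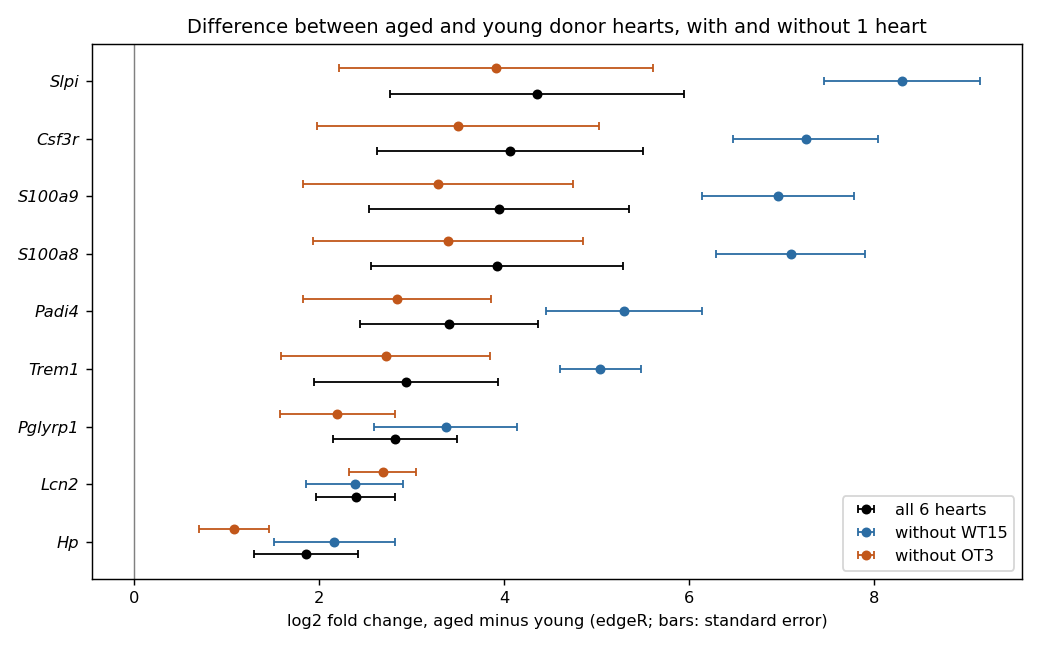
Log2 fold change of each of the 9 genes, aged minus young, from edgeR with all 6 hearts (black), without young heart WT15 (blue) and without aged heart OT3 (orange), with bars for the standard error. Leaving out WT15 moved 8 genes upward, Slpi from 4.35 to 8.30, and every value lay above 0. Lcn2 was 2.38 without WT15 and 2.69 without OT3. The fit without OT7, where Lcn2 was 1.82, is not drawn.

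The number of members past the limits depended on single hearts. It was 9 without WT15, 8 without OT4, 6 without WT3 or without WT13, 5 without OT7 and 4 without OT3, and the direction was the same for all 9 genes in each of these fits. The share of all tested genes that were higher was 13.2% with all hearts, 26.9% without WT15 and 9.97% without OT4. It was 5.83% without WT3, 6.13% without WT13, 8.79% without OT7 and 7.47% without OT3, so it did not follow the count of members in every fit. Lcn2, Pglyrp1 and Padi4 passed the limits in all 6 of these fits, Hp in 5, and S100a8, S100a9, Slpi, Csf3r and Trem1 in 3 each. Without WT15 all 9 members had an adjusted p under 0.05 in edgeR, as had 6815 of the 14109 genes then tested.

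Upstream sequences are shown for 3 members: a calgranulin, the granule protein with its own order of hearts, and a receptor whose aged hearts fell in the calgranulin order. Those of Pglyrp1 and Trem1 were searched but are not shown. RefSeq promoter sequences of build GRCr8, which is not the build of the expression table, matched 5 of the 9 members by symbol (S100a9, Lcn2, Pglyrp1, Csf3r and Trem1). Each line gives the 250 bases before the annotated start, 5′ to 3′ on the gene's strand, at chr2:178490623-178490872 (minus strand), chr3:36081781-36082030 (minus strand) and chr5:143582970-143583219 (plus strand). Capitals mark matches to motifs of factors known from granulocyte and inflammatory genes, and matches to the TATA box.
S100a9: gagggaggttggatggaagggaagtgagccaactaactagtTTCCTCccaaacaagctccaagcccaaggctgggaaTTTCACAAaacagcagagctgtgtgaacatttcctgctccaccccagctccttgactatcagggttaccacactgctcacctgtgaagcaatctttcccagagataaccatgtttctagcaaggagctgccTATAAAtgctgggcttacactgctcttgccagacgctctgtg
Lcn2: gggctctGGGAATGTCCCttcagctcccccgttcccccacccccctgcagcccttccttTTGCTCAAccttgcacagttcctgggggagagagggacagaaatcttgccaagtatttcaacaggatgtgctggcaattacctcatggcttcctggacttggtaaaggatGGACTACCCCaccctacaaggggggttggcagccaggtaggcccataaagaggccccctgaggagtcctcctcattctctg
Csf3r: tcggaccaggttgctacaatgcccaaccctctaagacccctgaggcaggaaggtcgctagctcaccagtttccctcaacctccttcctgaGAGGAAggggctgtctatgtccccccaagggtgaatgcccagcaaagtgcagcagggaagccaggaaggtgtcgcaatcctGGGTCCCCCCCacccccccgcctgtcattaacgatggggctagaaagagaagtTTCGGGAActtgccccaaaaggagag
The motifs searched on both strands were TTNNGNAA for the C/EBP family, GAGGAA for PU.1 and, for NF-kB, GGG and CC with any 5 bases between them. TATAAA for the TATA box was searched on the gene's strand only. C/EBP matched in 3 of the 5 promoters (S100a9, Lcn2 and Csf3r) and in 37.2% of 33469 rat promoters of the same length. PU.1 matched in 3 of 5 (S100a9, Pglyrp1 and Csf3r) and in 23.3% of all promoters, and NF-kB in 3 of 5 (Lcn2, Pglyrp1 and Csf3r) and in 42.3%. The TATA box matched in S100a9 alone among the 5, from 42 to 37 bases before its start, and in 8.06% of all promoters. In Lcn2 2 of the 3 NF-kB matches overlap, one on each strand, as do all 3 in Csf3r. Matches of these short motifs are common, and the Trem1 window held none of them.

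Levels were then compared between the genes in FPKM. S100a9 had 3.44, 2.91 and 99.1 FPKM in WT3, WT13 and WT15, and 1107, 233 and 513 FPKM in OT3, OT4 and OT7. Among all genes of the table it ranked at place 9098 in WT3 and 9358 in WT13, at 722 in WT15, and at 34, 295 and 123 in OT3, OT4 and OT7. S100a9, S100a8 and Slpi, in this order, led the 9 genes in WT15 and in all aged hearts, and Padi4 was the last in all 6 hearts. In WT3 and WT13 the order was different, with Lcn2 first at 9.86 and 8.02 FPKM. Csf3r took place 4 or 5 in WT15 and the aged hearts, despite a read count near that of S100a9, because the length given for it is 4097 bases against 528 bases for S100a9.

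The make-up of the summed signal followed the same split. Lcn2 gave 54.7% and 49.4% of the members' summed FPKM in WT3 and WT13, but 5.25% in WT15 and 1.85%, 9.06% and 9.12% in OT3, OT4 and OT7. S100a9 gave 19.1% and 17.9% in WT3 and WT13, 45.4% in WT15, and 40.1% to 48.9% in the aged hearts. By these shares WT15 was thus closer to the aged hearts than to WT3 and WT13. Not every share in WT15 lay in the aged range: Csf3r did, but Slpi took 14.8% against 17.9% to 20.3% in aged hearts. The level of WT15 was lower: the 9 genes together took 3927 of its reads, against 336 and 313 reads in WT3 and WT13 and 11499 to 44829 in the aged hearts.

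**Figure D3:**
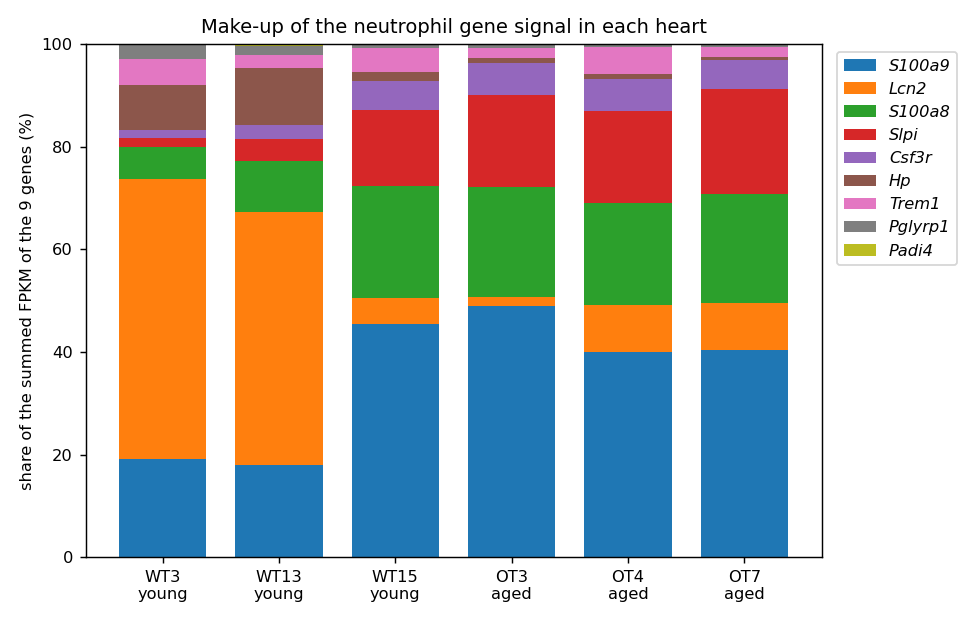
Share of the summed FPKM of the 9 genes (percent) that each gene takes in each heart. Lcn2 fills about as much of WT3 and WT13 as all other members together (54.7% and 49.4%), whereas S100a9, S100a8 and Slpi fill most of WT15 and of the 3 aged hearts.

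Across the 6 hearts, Pearson's r of each member's log2 CPM with the mean of the other 8 was 0.751 for Lcn2, 0.888 for Hp and 0.957 to 0.995 for the rest. With 6 hearts in separate groups such values are a description, and 18.0% of 12949 genes with at least 1 CPM had r above 0.9 with the members' mean. The 5 genes outside the set with the highest r were Aqp9 (0.9997), an aquaglyceroporin of leukocytes and liver, Igsf6 (0.9995), an immunoglobulin superfamily member of myeloid cells, Cfdp1 (0.9993), Gsdma (0.9993), a gasdermin, and Pf4 (0.9985), platelet factor 4. Aqp9 had 0, 0 and 16 reads in WT3, WT13 and WT15, and 375, 82 and 183 in OT3, OT4 and OT7. The likeness is one of pattern over hearts and not of size, since Cfdp1 differed by a log2 fold change of only 0.59 (SE 0.18, edgeR adjusted p = 0.0947).

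Genes that act directly with the members were mixed. Of 13 such partners in the table, 10 were tested, and 5 were higher and 1 lower past the limits (median log2 fold change 1.69). Without WT15 7 were higher and 2 lower, and without OT3 3 were higher and 1 lower. Csf3, the ligand of Csf3r, had 0 reads in every young heart and 20, 1 and 9 reads in OT3, OT4 and OT7, too few to be tested. Downstream of Csf3r, the kinase Jak2 (1.42) and the feedback inhibitor Socs3 (2.56) were past the limits on the log2 scale, and the transcription factor Stat3 (0.33, edgeR adjusted p = 0.394) was not. Tlr4, the toll-like receptor that calprotectin engages, was higher by 1.11, whereas its co-receptor Cd14 (1.95, adjusted p = 0.209) and the other calprotectin receptor Ager (-0.82, adjusted p = 0.220) did not pass edgeR's limits. The adaptor of Trem1, Tyrobp, had a log2 fold change of 2.39 and missed the p limit (edgeR unadjusted p = 0.0544). Slc22a17, the lipocalin 2 receptor, was the partner that was lower (-1.22, edgeR adjusted p = 0.0916), with 607 to 733 reads in young and 355 to 475 in aged hearts. Cd163, the scavenger receptor for haptoglobin bound to haemoglobin, was higher by 2.39, with 667 to 1320 reads in young and 3183 to 13752 in aged hearts. Elane, the elastase that Slpi inhibits, had 0, 0 and 9 reads in WT3, WT13 and WT15, and 113, 17 and 113 in OT3, OT4 and OT7 (log2 fold change 4.29, edgeR adjusted p = 0.0945), while Ctsg and Prtn3 had 0 reads in all hearts.

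Other neutrophil genes were described in the same way. Of 29 further granule and surface genes, 28 were in the table and 18 were tested, and 12 of these were higher and 0 lower past the limits, with a median log2 fold change of 3.43. The count was 18 of 18 without WT15 and 8 of 18 without OT3. A gene with few reads in young hearts could pass the low-count filter through the aged hearts alone, as Elane and Camp did, so these counts are a description only. Among specific and gelatinase granule genes, Mmp8, the neutrophil collagenase, was higher by 3.83 (edgeR adjusted p = 0.114) and Fcnb, a ficolin, by 3.25 (edgeR adjusted p = 0.104), while the gelatinase Mmp9 had a value of 3.07 and missed the p limit (edgeR unadjusted p = 0.0670). Camp, the cathelicidin, was also past the limits, with 15, 13 and 15 reads in OT3, OT4 and OT7, and 0 to 4 in young hearts, a gene named after its values were seen. At the surface 8 of 13 tested genes were higher, but the 3 with the highest mean CPM, which is not corrected for length, the integrins Itgb2 (2.67) and Itgam (2.43) and the complement receptor C5ar1 (2.35), which monocytes share, missed the p limit. Several defining granule genes were at or near 0: lactoferrin (Ltf) had 0 reads in all hearts, as had the chemokine receptor Cxcr1, and myeloperoxidase (Mpo) had 2 reads in WT3, 3 in OT3 and 0 elsewhere. Other untested genes, named after their values were seen, were also low. Ngp had 5, 6 and 6 reads in WT3, WT13 and WT15 and 11, 7 and 3 in OT3, OT4 and OT7. Bpi had 0 to 2 reads, Cd177 had 6 in OT3 and 0 elsewhere, and Olfm4 and Fpr2 were highest in OT3, at 37 and 46 reads.

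Of 5 tested genes listed as neutrophil recruitment ligands, 4 were higher, with 5 higher without WT15 and 3 without OT3. Cxcl3 had 0, 1 and 32 reads in WT3, WT13 and WT15 and 645, 140 and 717 in OT3, OT4 and OT7 (log2 fold change 5.14, edgeR adjusted p = 0.0916), and Cxcl1 was higher by 3.22 (edgeR adjusted p = 0.126). The others past the limits were Cxcl2 (5.68) and Pf4 (2.81), which is also listed here as a platelet marker. Cxcl6 had a log2 fold change of 3.12 and missed the p limit (edgeR unadjusted p = 0.0794). Among 7 tested transcription factors of granulocytes, 3 were higher, Cebpb (1.26), Cebpd (1.62) and Spi1 (1.95), which encodes PU.1, while Irf8 (1.39, edgeR adjusted p = 0.168) missed the p limit. Without WT15 all 7 of these factors were higher, and without OT3 only 1.

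Relatives of the members by sequence were mixed. Of 8 tested S100 genes other than the calgranulins, 0 were higher and 1 was lower in edgeR, the cardiomyocyte gene S100a1 (-1.97), and the 3 with the highest mean CPM, S100a11 (1.14), S100a10 (0.96) and S100a4 (1.56), missed the p limit. Without WT15 4 of 9 tested S100 genes were higher. Padi2, the one other deiminase tested, had 5, 6 and 52 reads in WT3, WT13 and WT15 and 33 to 43 in aged hearts (log2 fold change 0.49, edgeR adjusted p = 0.661), and Padi1 and Padi6 had 0 reads. Without WT15 Padi2 was past the limits, with a log2 fold change of 2.02. In the TREM family Trem3 (3.91) and Treml2 (2.59) were higher and Trem2 (1.00, edgeR adjusted p = 0.467), a macrophage receptor, was not, and 4 of the 5 tested were higher without WT15. None of Pglyrp2, Pglyrp3 and Pglyrp4 had enough reads to be tested with all hearts, and without WT15 1 of them was tested and was higher. Of 3 tested WAP domain genes related to Slpi, Wfdc1 was lower (log2 fold change -5.79, edgeR adjusted p = 0.0916), and Wfdc2 (0.84, edgeR adjusted p = 0.174) and Eppin (edgeR adjusted p = 0.181) missed the p limit.

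**Figure D4:**
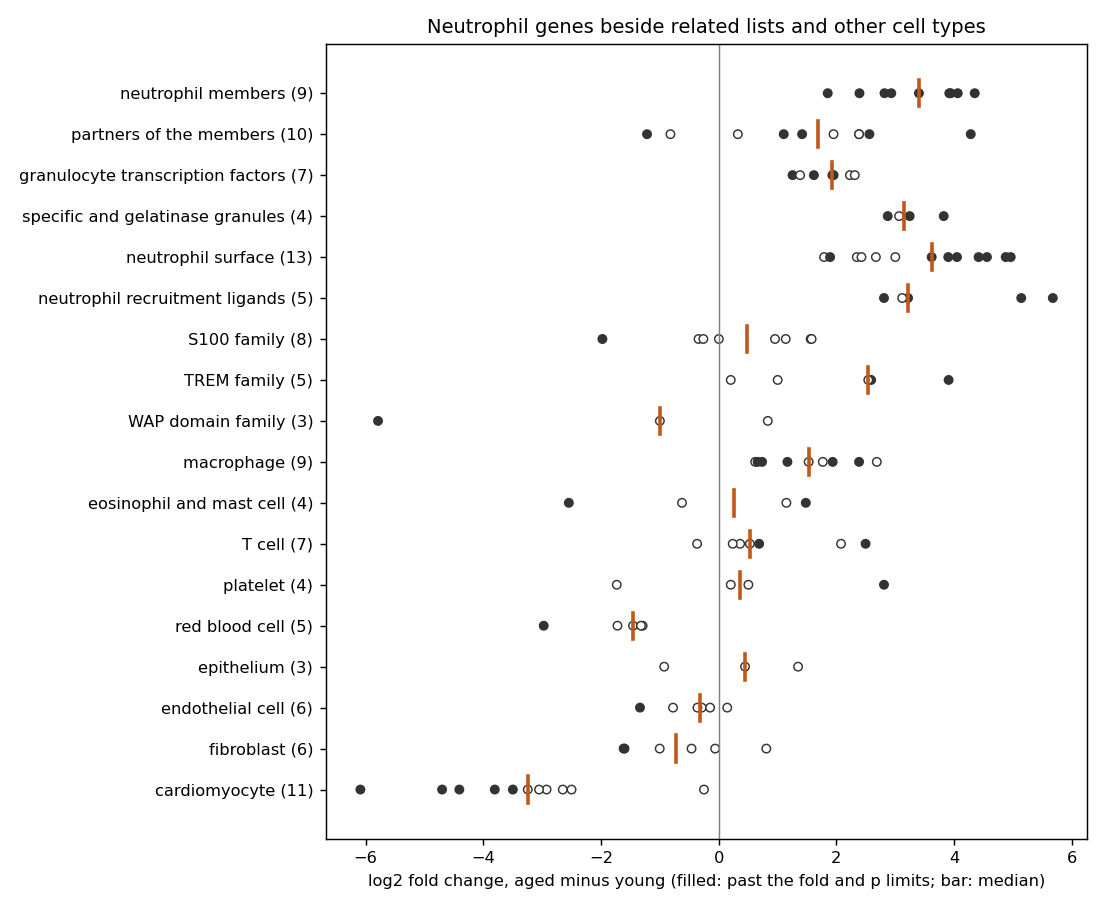
Log2 fold change, aged minus young, of every tested gene in the neutrophil set and in related gene lists and cell type marker lists with at least 3 tested genes (number tested in brackets), filled where past the fold and p limits, with a bar at each list's median. The 9 members (median 3.40) and the other neutrophil lists lie to the right of the macrophage list (median 1.53), and cardiomyocyte markers lie to the left (median -3.24).

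Markers of other cells changed in the same hearts, and their part in the members' differences was not tested. Of 9 tested macrophage markers, 5 were higher and 0 lower (median log2 fold change 1.53), namely Cd163, Mrc1, Adgre1, C1qb and C1qc, while Lyz2 (2.69) and Csf1r (1.53) missed the p limit. Summed over 10 macrophage markers, the level was 363 to 2275 CPM in young hearts, WT15 being the highest, and 3598 to 6930 CPM in aged hearts. Summed CPM of the 9 members was 0.0517, 0.0548 and 0.0713 times that of the macrophage markers in WT3, WT13 and WT15, and 0.212, 0.106 and 0.248 times in OT3, OT4 and OT7. This ratio too was higher in every aged heart than in every young heart. It leaned on single genes, so the place of WT15 between the groups is not read from it. Lcn2, which has sources outside neutrophils, gave 11.4 of the members' 20.3 CPM in WT3 and 9.73 of 19.9 CPM in WT13. In WT15 it gave 9.38 of 162 CPM. Lyz2 gave 1406 of the 2275 macrophage marker CPM in WT15, 4753 of 6930 in OT3, 2696 of 4111 in OT4 and 2708 of 3598 in OT7. The macrophage sum in these hearts was thus mostly Lyz2, which itself missed the p limit. Without WT15 all 9 macrophage markers were higher, and without OT3 only 2 of the 9. Of 11 cardiomyocyte markers 5 were lower (Myh6, Actc1, Atp2a2, Pln and Myl2) and 0 higher, with 6 lower without WT15 and 8 lower without OT3, and the summed level ran from 14443 to 111454 CPM in young and from 629 to 9366 CPM in aged hearts.

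Markers of hepatocytes, epithelium and further cell types were mixed. The defining hepatocyte genes Alb and Fga had 0 reads in all 6 hearts, and Tf, the transferrin gene, was higher (edgeR adjusted p = 0.0916), with 1147 to 3103 reads in young and 4541 to 9171 in aged hearts. Ttr, the only other hepatocyte marker tested, had a log2 fold change of -2.04 and missed the p limit (edgeR adjusted p = 0.285). Of 3 tested epithelial markers 0 passed edgeR's limits, and the summed level of 8 was 1.14 to 5.37 CPM in young and 3.09 to 3.91 CPM in aged hearts, with Krt5 at 0 reads. Without WT15, the young heart with the highest epithelial sum, 2 of the 3 were higher. Eosinophil and mast cell markers gave 1 higher (Kit) and 1 lower (Cpa3) of 4 tested, T cell markers 2 higher of 7 (Cd2 and Lck), and platelet markers 1 higher of 4, which was Pf4. Of 5 tested red blood cell markers 0 were higher and 1, Slc4a1, was lower, and their summed level was 729 to 5781 CPM in young and 246 to 3097 CPM in aged hearts. Endothelial markers gave 1 lower of 6 (Emcn) and fibroblast markers 2 lower of 6 (Col1a1 and Dpt), with medians of -0.32 and -0.73. Among the genes given with these counts, Cebpd, Cxcl2, Cxcl6, S100a1, Adgre1, C1qb, C1qc, Pln, Myl2, Cpa3, Cd2, Slc4a1, Emcn and Dpt were named only after their values were seen.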

How the data were processed

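Gene expression was measured by RNA-Seq of polyadenylated RNA in 3 young and 3 aged donor hearts. The authors deposited a single table with the raw read count of each gene in each heart, without normalization, and the FPKM value of each gene in each heart. The deposited FPKM values equal the count divided by gene length and by the library's total count, within a relative tolerance of 0.001, for all but 1 of 133500 values. The submitters' processing notes name HISAT2 2.0.5, StringTie, featureCounts, DESeq2 1.16.1, GATK 3.7 and the rat build Rnor_6.0. The strand setting of the counting is not given in the sources used here. All columns with values of single hearts in the table belong to these hearts.

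Counts were analysed with edgeR 4.0.16 in R 4.3.3: filterByExpr with the donor groups, scaling by TMM, and glmQLFit and glmQLFTest without covariates, two-sided, on the whole table, with Benjamini-Hochberg adjustment. A call needs a fold change above 1.5 or below 0.67 and an unadjusted p under 0.05. The SE was derived from the F statistic (log2 fold change over its square root), and log2 CPM used a prior count of 2. Lists were described by counts and medians only. Alternatives used DESeq2 1.42.0, limma 3.58.1 (voom with quality weights), other scalings, no filter on low counts, an adjusted p, and each heart left out. The fit was tested on simulated counts with 200 changed genes. The genes named were the 9 members, their direct partners, up to 3 genes of each other list with the highest mean CPM, markers with 0 reads, and the 5 genes most like the members. The members and lists were chosen with earlier results of these data known. Counts of the most similar pair of hearts, WT3 and WT13, differed beyond counting error (chi-square over degrees of freedom 9.81), so all 6 hearts were kept. Libraries held 21457509 to 24560869 reads, and the floor of 3 reads covers counting error only.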

Additional observations from a re-analysis of the deposited data

How the results depend on the processing

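No paired analysis was possible because the young and aged hearts share only the number 3, and animal numbers count within each group. The 9 members stayed past the limits and higher with DESeq2's size factors, library totals alone, totals without mitochondrial genes, no filter on low counts, DESeq2's Wald test and limma-voom, where their median log2 fold change was 3.39 to 4.76. With an adjusted p in place of the unadjusted p, 0 members and 0 genes in all were higher in edgeR, while DESeq2 and limma-voom kept all 9 members. When each heart was left out in turn, the number of members past the limits ran from 4 (without OT3) to 9 (without WT15), with 5 without OT7, and their median log2 fold change from 2.84 (without OT3) to 5.29 (without WT15). The number of all genes past the limits and higher ran from 817 (without WT3) to 3802 (without WT15) against 1815 with all hearts, and it was 3147 with library totals alone and 3689 with limma-voom. Library totals alone moved the median of all genes from 0.016 to 0.46 on the log2 scale, and totals without mitochondrial genes to 0.30. Counts of other lists without WT15 and without OT3 were added after seeing the data, and for the other neutrophil genes they ran from 8 to 18. No member changed direction under any of these alternatives. In 3 hearts against 3, reads of Padi4 and Pglyrp1 near the floor in young hearts limit how well their fold change is known. Reads in WT3 and WT13 were also few for S100a8 (9 and 13), Slpi (6 and 13) and Trem1 (20 and 9). The size of their fold changes without WT15 is limited in the same way.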
